A study of Mus musculus with 4 samples.

Results

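Expression of 9 genes that make up or limit the cytokine response of myeloid cells was examined in single cells of the mouse heart, with and without infarction. The genes were the cytokines Tnf, Il6 and Il10, the IL-10 receptor chain Il10ra, and the regulators Tnfaip3, Nfkbia, Nfkbiz, Socs3 and Zfp36. They were taken by name, and all 9 were found among the 31053 genes of the deposited tables. In the annotation used (GRCm38, GENCODE vM21) the genes lie at chr17:35199381-35202007 (Tnf), chr5:30013114-30019981 (Il6), chr1:131019845-131024974 (Il10), chr9:45253837-45269149 (Il10ra), chr10:19000910-19015657 (Tnfaip3), chr12:55489410-55492647 (Nfkbia), chr16:55811375-55838899 (Nfkbiz), chr11:117966079-117970047 (Socs3) and chr7:28376784-28380253 (Zfp36). Every mouse was CSF1R-EGFP+, a reporter in which the Csf1r promoter drives EGFP, and was 12 to 16 weeks old. The baseline group had no surgery, and its 1 library was made from 3 pooled hearts. The infarct group underwent ligation of the left coronary artery, and its 3 libraries came from 1 heart each, collected at 7 days. After enzymatic digestion, EGFP+ cells negative for Ly6G, a neutrophil antigen, were sorted and sequenced with a droplet 3′ assay that counts unique molecular identifiers (UMIs). The Csf1r promoter is active mainly in monocytes and macrophages and also labels other blood cells.

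TNF and IL-6 are pro-inflammatory cytokines, and IL-10 restrains activated macrophages through the receptor that Il10ra helps to form. Activation of NF-κB induces these cytokines together with its own inhibitors. Nfkbia encodes IκBα, which retains NF-κB in the cytoplasm, and Tnfaip3 encodes A20, a ubiquitin-editing enzyme that ends NF-κB signalling. Nfkbiz encodes the nuclear protein IκBζ, which limits some NF-κB targets and is required for others, Il6 among them, so that it is a brake only in part. Socs3 is induced by STAT3 and blocks signalling by the IL-6 receptor, and Zfp36 encodes tristetraprolin, which binds AU-rich elements in the 3′ untranslated region (UTR) of cytokine mRNAs and speeds their decay. In the infarcted heart an early inflammatory phase gives way to a reparative phase, and these brakes are studied as part of that change.

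Because tristetraprolin acts on AU-rich elements, the 3′ UTRs of the genes were searched for the core TATTTAT on the transcript strand, using the longest annotated 3′ UTR of each gene (GRCm38, GENCODE vM21). Tnf carried 8 cores, Il10 carried 4, Il10ra and Zfp36 itself carried 3 each, Nfkbia, Socs3 and Tnfaip3 carried 2 each, Il6 carried 1, and Nfkbiz carried 0. The order differed for the shorter letters ATTTA, for which no share over all genes is given. These occurred 10 times in Il6, 8 in Tnf, 6 in Il10 and 5 in Tnfaip3. Nfkbiz and Socs3 held 4 each, Il10ra and Zfp36 held 3 each, and Nfkbia held 2. Of 21020 protein-coding genes with a 3′ UTR, 27.6% had at least 1 core and 4.14% had 3 or more. The 30 bases holding the most cores are shown for the 3 cytokines, for Il10ra and for Zfp36, with the cores in capitals; overlapping cores share letters. The windows lie at chr17:35199677-35199706 on the minus strand for Tnf, at chr1:131024385-131024414 on the plus strand for Il10, at chr5:30019728-30019757 on the plus strand for Il6, at chr9:45254112-45254141 on the minus strand for Il10ra, and at chr7:28376958-28376987 on the minus strand for Zfp36.
Tnf: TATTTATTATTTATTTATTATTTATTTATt
Il10: tctctccgaaaTATTTATtacctctgatac
Il6: tttatgattgaTATTTATtatttttatgaa
Il10ra: tTATTTATTTATttgctcactTATTTATtg
Zfp36: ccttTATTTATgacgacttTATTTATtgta
A core is a match of letters and not a shown binding site.

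Promoters of 6 of the genes were held by the RefSeq table of promoters used here (GRCm38.p6, 250 bases before to 50 after the start site), and Il10, Il10ra and Nfkbiz were not matched. The NF-κB consensus, searched on both strands, occurred in 4.51% of 32851 promoters. It occurred in the promoters of Nfkbia, Tnfaip3 and Il6, which are shown because the first pair encode inhibitors of the factor that binds it. No match lay in these windows of Tnf, Socs3 or Zfp36, nor in the second Tnfaip3 promoter of the table. The STAT letters TTCNNNGAA, present in 8.30% of promoters, occurred in Socs3, a STAT3 target, and in Zfp36. The AP-1 letters TGANTCA, present in 7.81%, occurred in Il6 and in Tnfaip3, and no match of 1 kind overlapped a match of another. The stretches below run 5′ to 3′ over the 50 bases before the start site, with NF-κB matches in capitals for the first 3 genes and the STAT match in capitals for Zfp36. They lie at chr12:55492648-55492697 on the minus strand, chr10:19015411-19015460 on the minus strand, chr5:30013064-30013113 on the plus strand and chr7:28379229-28379278 on the minus strand.
Nfkbia: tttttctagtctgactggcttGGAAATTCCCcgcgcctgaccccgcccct
Tnfaip3: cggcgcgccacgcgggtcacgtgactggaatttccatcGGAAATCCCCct
Il6: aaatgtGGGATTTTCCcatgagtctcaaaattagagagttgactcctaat
Zfp36: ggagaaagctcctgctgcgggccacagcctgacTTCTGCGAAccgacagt
Tnfaip3 held a second match, GGGACACCCC, 125 to 116 bases before the same start site.

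Across the 4 libraries 41533 cells were kept, between 10117 and 10782 in each, with a median of 6398.5 UMIs per cell at baseline and 8469.5 to 8556.5 in the infarct libraries. Pairs of libraries shared 26 to 34 cell barcodes, at most 0.332% of the smaller library. Clustering gave 11 classes named by their markers, and names end in "-like" because they rest on transcripts alone. Reparative-like macrophages, with Gpnmb, Trem2 and Spp1 among their leading genes, made up 5658 to 7877 cells of each infarct library, and Ly6c-high monocyte-like cells made up 1093 to 3146. Saa3, Arg1, Slpi and Fn1, genes of another listed macrophage state, were also among the leading genes of the Ly6c-high class. Resident-like macrophages, led by Lyve1 and Cd163, made up 6047 baseline cells and 52 to 79 cells of each infarct library. The 18 immediate-early and heat-shock genes that are known to rise during tissue digestion summed to 16169 CPM at baseline and to 11405, 11655 and 11665 CPM in the infarct libraries, where CPM is the number of UMIs per 1000000 UMIs of the sum.

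To ask how infarction changed the level of each gene, UMIs were summed over all cells of a library and expressed as CPM. With 1 baseline library no test was possible, and a gene was called where all 3 infarct libraries lay on the same side of baseline and their mean differed from it 2-fold or more, which 22.8% of 21325 genes did. Il10 was the 1 gene of the 9 to be called. Its level was 1.18 CPM at baseline (95% exact Poisson interval 0.938 to 1.47, from 80 UMIs) and 3.84, 4.62 and 6.35 CPM in infarct replicates 1, 2 and 3, a mean of 4.94 ± 1.28 (SD, n = 3) and a ratio to baseline of 4.17. The share of cells with an Il10 UMI, after every cell was thinned to 2000 UMIs, was 0.178% at baseline and 0.566%, 0.801% and 0.849% in the infarct libraries; before thinning it was 0.508% and 1.49%, 2.00% and 2.34%. Endothelial-like cells of the baseline library, a type in which Il10 is not expected, had Il10 UMIs in 0 of 186 cells, which allows a share of up to 1.61%, at a median of 1786.5 UMIs. That limit lies above the 4 thinned shares. In the infarct libraries 2 of 33 endothelial-like cells held Il10 UMIs, 5 in all, and whether these are background was not tested. The background of Il10 could therefore not be set from the endothelial-like cells.

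Tnf was lower in each infarct library, by less than 2-fold. It was 65.9 CPM at baseline (64.0 to 67.8) and 36.5, 52.6 and 44.3 CPM after infarction, a log2 difference of -0.57 between the infarct mean and baseline. Thinned to 2000 UMIs, 10.0% of baseline cells and 6.03%, 8.41% and 7.55% of infarct cells had a Tnf UMI, while before thinning the shares were 22.5% and 17.8%, 23.7% and 20.2%. Endothelial-like cells of the baseline library held 28.1 CPM of Tnf from 16 UMIs, with a UMI in 5.68% of 88 thinned cells (95% exact binomial interval 1.87% to 12.8%). That interval holds the thinned shares of all 4 libraries. The 16 UMIs came from 9 cells, 1 of which held 5. In the same library Ly6c-high monocyte-like cells lay below 28.1 CPM, at 17.7 CPM (15.2 to 20.5), as did dendritic-like cells at 19.8 CPM. A background of Tnf could therefore not be set from the endothelial-like cells. Il6 did not separate the groups, at 2.74 CPM at baseline and 2.78, 1.27 and 3.97 CPM after infarction.

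The receptor chain and the brakes changed by less than 2-fold over whole libraries. Il10ra was at 171 CPM at baseline and at 138, 128 and 121 CPM after infarction, Nfkbiz at 305 CPM and at 206, 200 and 264 CPM, and every infarct value lay below baseline. Zfp36 was 1057 CPM at baseline and 936, 874 and 898 CPM in the infarct libraries. Socs3 was the 1 brake with all infarct values above baseline, 253, 224 and 272 CPM against 171 CPM, a log2 difference of 0.55. Tnfaip3 (93.3 CPM against 60.7, 59.0 and 102 CPM) and Nfkbia (439 CPM against 330, 393 and 527 CPM) were on both sides of baseline, with replicate 3 highest. The scaling mattered here: the median of genes with at least 10 CPM was -0.19 on the log2 scale by library total and 0.10 by TMM, the trimmed-mean scaling of edgeR. TMM turned Nfkbia from -0.08 to 0.21 and Zfp36 from -0.23 to 0.06, whereas Tnf at -0.28, Il10ra at -0.12, Nfkbiz at -0.17 and Socs3 at 0.83 kept their direction. The mix of cell types also changed between the groups, so that fewer cells of a type and less RNA per cell cannot be told apart in these sums.

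**Figure D1:**
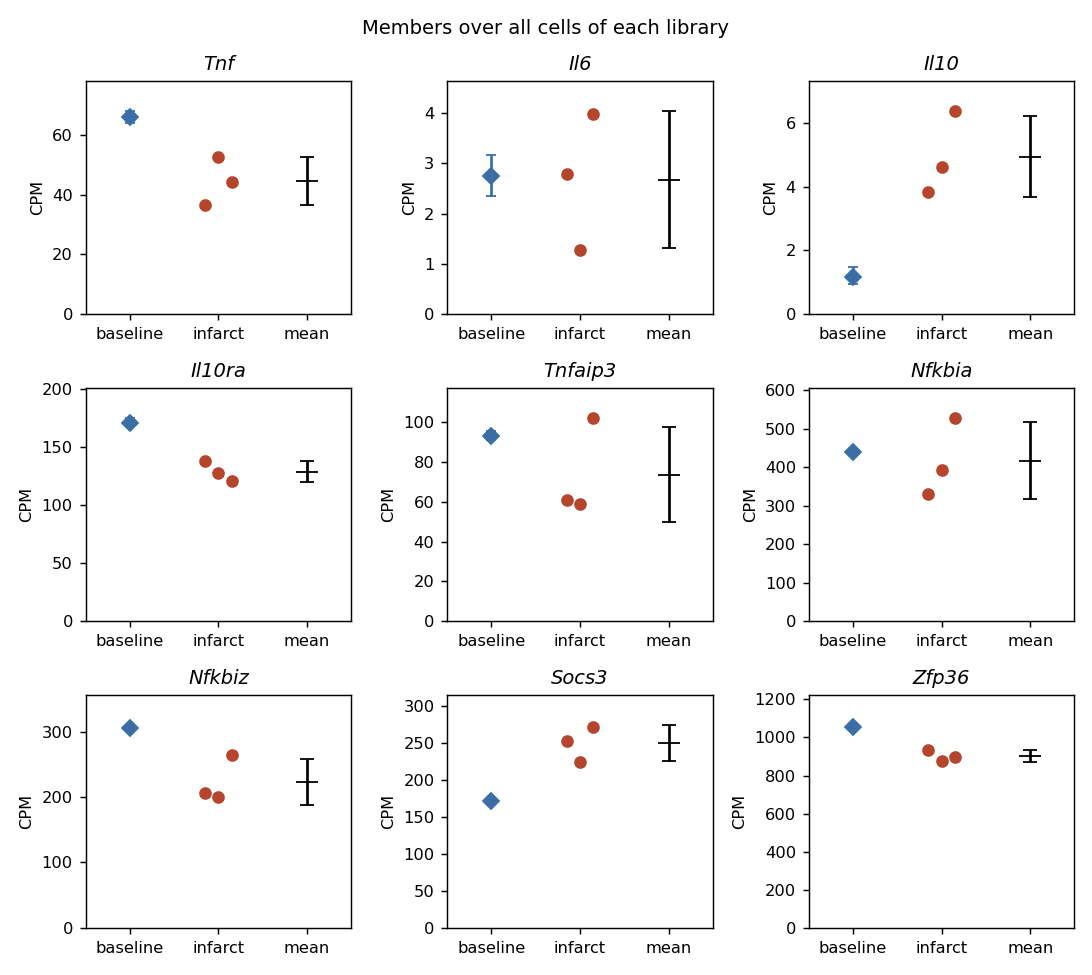
Level of each gene over all cells of a library, in CPM on a linear axis from 0. Diamonds are the baseline library with its 95% exact Poisson interval, circles the 3 infarct libraries, and the black bar their mean ± SD (n = 3); the Il10 circles, at 3.84 to 6.35 CPM, all lie above the 1.18 CPM of baseline, and the Tnf circles all lie below it.

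To find which infarct cells carried each gene, each class was compared with all other cells of the same 3 libraries on summed counts, with the library as a block (edgeR quasi-likelihood test, Benjamini-Hochberg adjusted p below 0.01 over all genes tested). The 9 genes had been kept out of the genes used for clustering, although they may vary with genes that were used. Of 81 pairs of gene and class, 34 passed, 19 higher and 15 lower. Granulocyte-like cells had 7 of 9 genes past the threshold, where 15.7% of all genes tested were. Dendritic-like and non-classical monocyte-like cells had 5 each, against 37.1% and 22.5% of genes. Ly6c-high monocyte-like, proliferative-like and reparative-like cells had 4 each, against 17.3%, 24.6% and 26.8%. Interferon-response-like cells had 3, against 14.3%, B cell-like cells had 2, against 7.11%, and resident-like cells had 0, against 10.5%. In resident-like cells, of which there were 52 to 79 in each infarct library, edgeR gave 2 genes at an unadjusted p below 0.05, Tnf and Nfkbia, and DESeq2 gave 0 at either level. Endothelial-like and fibroblast-like cells were too few in the infarct libraries to be tested.

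**Figure D2:**
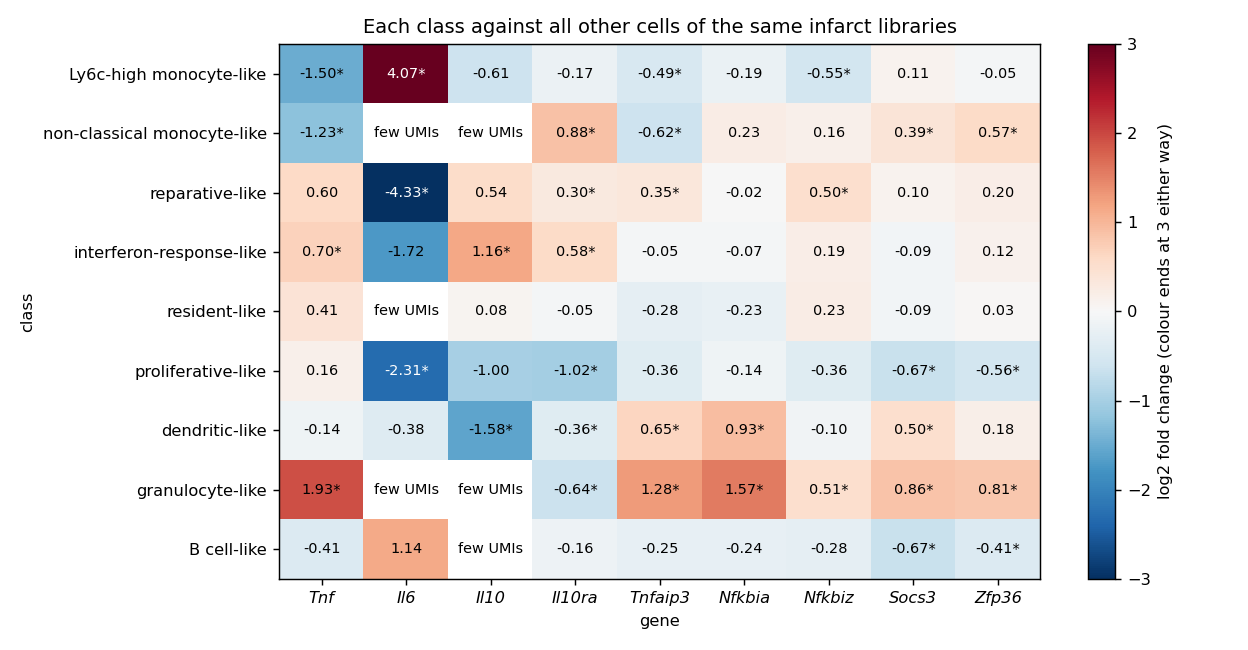
Log2 fold change of each gene in a class against all other cells of the same infarct libraries (edgeR, 3 libraries, library as a block). Asterisks mark an adjusted p below 0.01 and "few UMIs" marks pairs with fewer than 4 UMIs in the class; the granulocyte-like row is raised for Tnf, Tnfaip3, Nfkbia, Nfkbiz, Socs3 and Zfp36, and the Il6 column is raised in the Ly6c-high class at 4.07.

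By CPM Tnf was highest in granulocyte-like cells. They held 165, 101 and 299 CPM in infarct replicates 1, 2 and 3, and all other cells held 36.2, 52.5 and 43.2 CPM. Every granulocyte-like value was above every other-cell value (log2 fold change 1.93, SE 0.171, edgeR adjusted p = 1.59e-27). The signal came from 174 UMIs in 55 of 265 cells, and 1 cell of replicate 3 held 31 of them. CPM is a share of the UMIs of a class, so these levels do not order classes by UMIs per cell. Granulocyte-like cells held medians of 2324, 2591.5 and 2776.5 UMIs in infarct replicates 1, 2 and 3, against 8469.5 to 8556.5 over whole infarct libraries. These cells passed the Ly6G gate although 7 of 7 listed granulocyte markers, S100a8 and S100a9 among them, were raised in the class. The 18 immediate-early and heat-shock genes summed to 17409, 14177 and 18621 CPM in them, above the library values, with 6 higher and 3 lower by the same test, and their part in the result was not tested.

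Interferon-response-like macrophages, defined by Ifit genes and Cxcl10, also had more Tnf, with 56.5, 68.8 and 66.5 CPM against 35.5, 51.2 and 43.4 CPM (0.70, SE 0.0726, edgeR adjusted p = 1.25e-06), a call that was lost without the block (edgeR adjusted p = 0.0139). Reparative-like macrophages held 8618 of the 11949 Tnf UMIs of the infarct libraries, and at 47.4, 56.1 and 46.2 CPM against 23.9, 44.5 and 40.4 CPM did not pass (0.60, edgeR adjusted p = 0.0214). Ly6c-high monocyte-like cells had the lowest mean Tnf of the 9 classes tested, 14.9, 22.1 and 17.3 CPM against 45.4, 56.0 and 49.6 CPM (-1.50, SE 0.0942, edgeR adjusted p = 0.000288). Non-classical monocyte-like cells, the patrolling monocytes, had 30.4, 19.0 and 13.6 CPM from 29 UMIs (-1.23, edgeR adjusted p = 1.21e-05), which turned to 0.22 when cells were assigned by a per-cell marker gate in place of clusters. The ranges of these monocyte classes overlapped, and 5 of their 6 values lay below the 28.1 CPM of the baseline endothelial-like cells. As given above, that level could not be taken as a background. Between these ends, the mean level fell in the order resident-like (66.8 CPM), interferon-response-like (63.9), proliferative-like (51.1), reparative-like (49.9), dendritic-like (42.6) and B cell-like (33.2), and the ranges of all neighbours in that order overlapped.

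Il6 was concentrated in a few cells of the Ly6c-high class. That class held 7.60, 8.19 and 20.9 CPM in infarct replicates 1, 2 and 3, and all other cells held 0.784, 0.508 and 0.686 CPM. The groups did not overlap (4.07, SE 0.324, edgeR adjusted p = 0.000585), and the class held 563 of the 704 Il6 UMIs, or 80.0%. The UMIs came from 249 of 5846 cells, and the richest cell held 44. In a finer clustering aimed at 20 clusters, the Saa3-Arg1 macrophage-like cluster, whose leading genes Saa3, Arg1, Marco and Slpi encode acute-phase, arginine-degrading, scavenger and antiprotease proteins, held 404 of the 704 UMIs. Its Il6 level was 11.3, 26.8 and 31.0 CPM, and that of the finer Ly6c-high monocyte-like clusters was 5.21, 5.05 and 6.24 CPM. With the per-cell marker gate, which divides these states, the Ly6c-high difference was 0.90 and did not pass (edgeR adjusted p = 0.0910).

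In reparative-like macrophages Il6 was close to absent, with 0.317, 0.213 and 0.395 CPM against 5.61, 3.74 and 11.7 CPM in all other cells (-4.33, SE 0.203, edgeR adjusted p = 0.000139). Proliferative-like cells had less as well, from 7 UMIs in all (-2.31, edgeR adjusted p = 0.00365), but the difference turned to 0.55 with the per-cell gate. B cell-like cells reached 13.4 CPM in replicate 3 and 0 CPM in replicate 1, from 13 UMIs in 3 cells, and did not pass (1.14, edgeR adjusted p = 0.224). The 48 fibroblast-like cells, too few to test, held 27 Il6 UMIs in 13 cells, with 18, 8 and 1 UMIs in infarct replicates 1, 2 and 3. Without thinning, 249 of 5846 cells of the Ly6c-high class held an Il6 UMI. The 7 fibroblast markers, Col1a1 and Dcn among them, summed to 51331, 30865 and 35683 CPM in these cells, to 21.5, 17.2 and 33.4 CPM in the Ly6c-high class, and to 53.2, 51.2 and 53.6 CPM in reparative-like cells.

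Among the 9 classes tested, the mean of Il10 was highest in interferon-response-like macrophages, at 9.81, 6.95 and 12.4 CPM against 3.54, 4.42 and 6.09 CPM (1.16, SE 0.185, edgeR adjusted p = 0.000158). In each library the class lay above the other cells, but its range overlapped that of resident-like cells, which held 16.9, 0 and 2.98 CPM from 6 UMIs. The edgeR call was lost without the block and after thinning to 2000 UMIs, with an adjusted p of at most 0.0214 over 13 other settings. Reparative-like macrophages held 939 of the 1316 Il10 UMIs, or 71.4%, spread over 416 cells, and had 4.27, 5.15 and 6.83 CPM against 3.35, 3.38 and 5.31 CPM (0.54, edgeR adjusted p = 0.0119). Dendritic-like cells had the lower values 1.39, 1.82 and 1.80 CPM against 4.02, 4.74 and 6.54 CPM (-1.58, SE 0.265, edgeR adjusted p = 0.000494), although with clusters aimed at 20 the difference was 0.27 and did not pass. The finer cluster that kept the name holds 167 cells, and its 6 Il10 UMIs came from 1 cell of replicate 3, while an unnamed finer cluster with 1540 of the cells of the class had 0.829, 1.85 and 0 CPM. Granulocyte-like cells held 0 Il10 UMIs in 77, 70 and 118 cells, which allows shares of up to 3.90%, 4.29% and 2.54%, for counting error only.

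Il10ra had a different distribution from its ligand. By CPM non-classical monocyte-like cells had the most, 258, 258 and 227 CPM against 138, 128 and 120 CPM (0.88, SE 0.113, edgeR adjusted p = 1.28e-13), and their range did not overlap that of the next class. Interferon-response-like cells followed with 192, 158 and 166 CPM (0.58, edgeR adjusted p = 1.54e-06). Proliferative-like cells had the least, 76.9, 56.2 and 69.6 CPM against 141, 133 and 123 CPM (-1.02, SE 0.105, edgeR adjusted p = 0.000129). Dendritic-like cells differed by -0.36 (edgeR adjusted p = 0.000296) and granulocyte-like cells differed by -0.64 (edgeR adjusted p = 0.00547), which turned to 0.17 with the per-cell gate. In reparative-like cells the small rise of 0.30 (edgeR adjusted p = 0.00396) turned to -0.27 with clusters aimed at 20 and to -0.13 with the per-cell gate. Baseline endothelial-like cells held 79.0 CPM of Il10ra, and whether that level is background was not tested. The proliferative-like infarct values lie below that level, as does the 78.0 CPM of reparative-like cells at baseline.

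**Figure D3:**
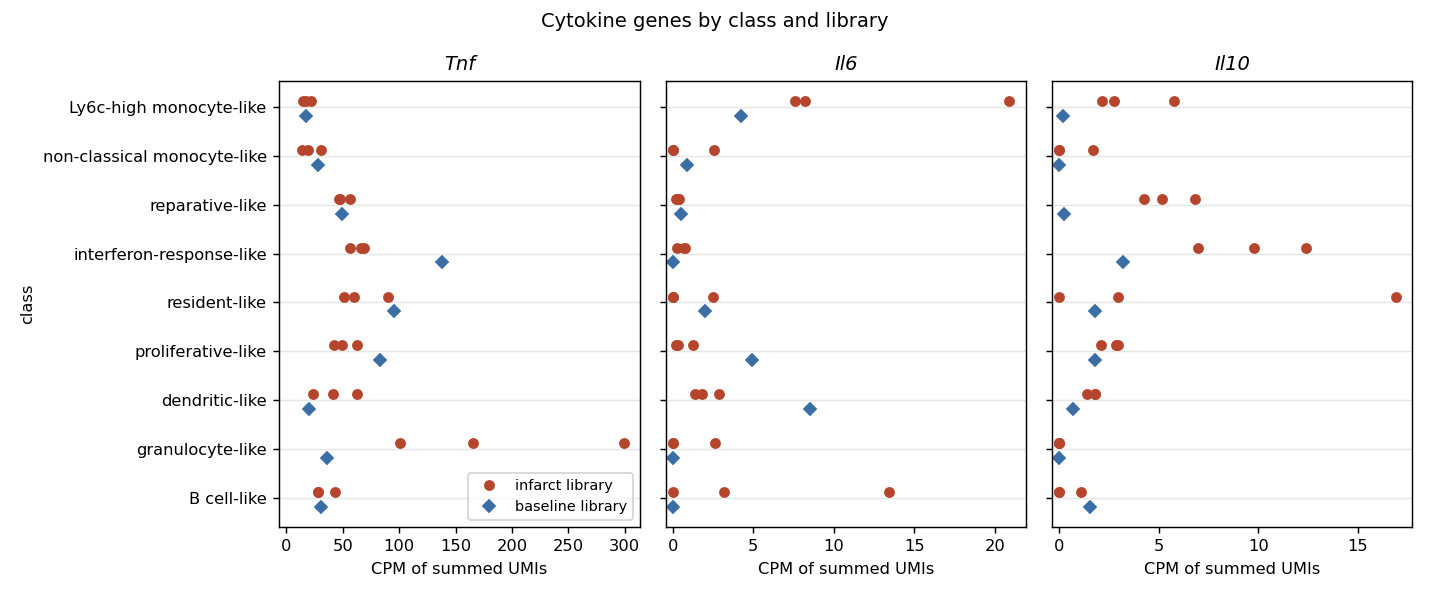
Tnf, Il6 and Il10 in each of the 9 classes tested, in CPM of summed UMIs on linear axes from 0. Endothelial-like and fibroblast-like cells are not shown, and 13 of 48 fibroblast-like infarct cells held an Il6 UMI. Each circle is 1 infarct library and each diamond the baseline library; Tnf stands out in granulocyte-like cells at 101 to 299 CPM, Il6 in Ly6c-high monocyte-like cells at 7.60 to 20.9 CPM, and Il10 in interferon-response-like cells at 6.95 to 12.4 CPM, while the high Il10 circle of resident-like cells rests on 6 UMIs over 3 libraries.

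By CPM the NF-κB inhibitors were highest in granulocyte-like and dendritic-like cells. Nfkbia was at 995, 1375 and 1858 CPM in granulocyte-like cells and at 328, 390 and 521 CPM in all other cells (1.57, SE 0.141, edgeR adjusted p = 6.33e-27). In dendritic-like cells it was at 553, 757 and 989 CPM against 314, 377 and 508 CPM (0.93, SE 0.0548, edgeR adjusted p = 1.42e-07). Both differences held in every library and under all 13 other settings tried. No other class passed for Nfkbia, and the means of the other 7 classes lay between 357 and 508 CPM.

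Tnfaip3 followed the same order at its upper end. It was at 215, 138 and 260 CPM in granulocyte-like cells against 60.3, 58.8 and 101 CPM (1.28, SE 0.166, edgeR adjusted p = 5.11e-13) and at 86.8, 109 and 138 CPM in dendritic-like cells against 58.9, 56.8 and 100 CPM (0.65, edgeR adjusted p = 7.87e-05). It was lower in non-classical monocyte-like cells (-0.62, edgeR adjusted p = 0.00389), a difference that became 0.22 with the per-cell gate, and in Ly6c-high monocyte-like cells (-0.49, edgeR adjusted p = 0.00994), where 7 of 13 other settings lost the call. In reparative-like cells it was at 67.3, 60.2 and 108 CPM against 53.1, 56.1 and 88.1 CPM (0.35, edgeR adjusted p = 0.00807). That direction turned to -1.48 with clusters aimed at 20 and to -0.29 with the per-cell gate.

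Nfkbiz was higher in granulocyte-like cells (303, 352 and 427 CPM against 206, 200 and 263 CPM; 0.51, edgeR adjusted p = 0.00504), a call that 7 of 13 other settings lost. In reparative-like cells it was at 246, 210 and 282 CPM against 160, 177 and 223 CPM (0.50, SE 0.0770, edgeR adjusted p = 0.00420), and this turned to -1.51 with clusters aimed at 20 and to -0.54 with the per-cell gate. It was lower in Ly6c-high monocyte-like cells, at 147, 154 and 189 CPM against 230, 205 and 278 CPM (-0.55, edgeR adjusted p = 0.00500).

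By CPM Socs3 was highest in granulocyte-like cells, at 591, 433 and 525 CPM against 252, 224 and 271 CPM (0.86, SE 0.144, edgeR adjusted p = 4.66e-08). Non-classical monocyte-like cells followed with 347, 452 and 251 CPM (0.39, edgeR adjusted p = 0.00235), where replicate 3 lay below the 272 CPM of the other cells and 4 of 13 other settings lost the call. Dendritic-like cells held 305, 348 and 388 CPM against 249, 219 and 267 CPM (0.50, edgeR adjusted p = 0.000137), and the cluster that kept this name among clusters aimed at 20, led by Ccr7 and Fscn1, had -0.92. Proliferative-like cells had less, 175, 144 and 173 CPM against 256, 229 and 277 CPM (-0.67, SE 0.0782, edgeR adjusted p = 0.000263). B cell-like cells had the same difference of -0.67 (edgeR adjusted p = 2.46e-07), which turned to 0.39 with the per-cell gate. Over all 4 libraries, 317 of the cells gated as B cell-like came from the clustered B cell-like class and 1696 from the reparative-like class.

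By CPM Zfp36 was also highest in granulocyte-like and non-classical monocyte-like cells. Non-classical monocyte-like cells held medians of 4010.5, 3984 and 4414 UMIs in infarct replicates 1, 2 and 3, and the depth of granulocyte-like cells is given above. UMIs per cell were not compared. Granulocyte-like cells held 2273, 1464 and 1714 CPM against 933, 872 and 895 CPM (0.81, SE 0.140, edgeR adjusted p = 1.36e-07), and non-classical monocyte-like cells 1395, 1637 and 1205 CPM against 934, 870 and 896 CPM (0.57, SE 0.0980, edgeR adjusted p = 7.55e-08). Proliferative-like cells held 677, 574 and 677 CPM against 946, 893 and 909 CPM (-0.56, SE 0.0792, edgeR adjusted p = 0.000803). B cell-like cells differed by -0.41 (edgeR adjusted p = 9.01e-05), which turned to 0.40 with the per-cell gate. In the other 5 classes the means lay between 890 and 1059 CPM, and none of them passed.

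Other genes of the same pathways were counted from lists of 82 genes in all, and called genes made up the following shares of all genes tested in each class. The shares higher and lower were 17.4% and 19.7% in dendritic-like, 10.4% and 12.1% in non-classical monocyte-like, 6.61% and 9.05% in granulocyte-like, 11.3% and 15.5% in reparative-like and 8.82% and 8.45% in Ly6c-high monocyte-like cells. They were 8.03% and 6.26% in interferon-response-like, 13.6% and 11% in proliferative-like, 4.11% and 3.00% in B cell-like and 3.64% and 6.85% in resident-like cells. No list was tested as a set.

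Of 26 other NF-κB subunits and regulators, dendritic-like cells had 16 higher and 2 lower (median log2 fold change 0.57, against -0.07 for all genes tested). Traf1 rose most there, from 30.8 ± 2.52 to 386 ± 41.6 CPM (SD, n = 3), followed by Tnip3, whose product ABIN-3 works with A20, and by the subunit Relb. Non-classical monocyte-like cells had 10 higher and 0 lower, led by Ikbkb at 386 ± 21.7 CPM against 98.8 ± 8.29 CPM. Granulocyte-like cells had 4 higher and 2 lower, with Nfkbid and Cyld raised by 1.80 and 0.98 and Tnip3 lower at -3.55. Reparative-like cells had 1 higher and 8 lower, among them Traf1 at -1.65 and Tnip3 at -1.12. Ly6c-high monocyte-like cells had 5 higher and 0 lower, led by Ikbke at 2.03, B cell-like cells 3 and 1, interferon-response-like and resident-like cells 1 and 3 each, and proliferative-like cells 0 and 5.

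Of 19 genes of IL-6 and IL-10 signalling, interferon-response-like cells had 6 higher and 2 lower, with Socs1, a relative of Socs3, raised by 2.14. Dendritic-like cells had 10 higher and 2 lower, led by Socs2 at 3.96, and had less Il10rb, the partner chain of Il10ra, by a log2 fold change of -1.34. Reparative-like cells had more Il10rb (0.84) and Maf (0.67), a transcription factor known to drive Il10, with 2 genes of the list higher and 8 lower. Ly6c-high monocyte-like cells had more Nfil3 (1.96), Il6st (0.76) and Stat3 (0.56) and less Il10rb (-0.77), with 3 higher and 2 lower. Non-classical monocyte-like cells had 7 higher and 5 lower, granulocyte-like cells 3 and 3, resident-like cells 2 and 3, B cell-like cells 1 and 1, and proliferative-like cells 0 and 10.

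Of 6 genes of TNF release and reception, non-classical monocyte-like cells had 2 higher and 0 lower, with the receptor Tnfrsf1b at 567 ± 37.1 CPM against 114 ± 15.3 CPM. Dendritic-like cells had 0 higher and 5 lower, Adam17, the enzyme that releases TNF from the cell surface, among them at -0.92. Of 13 genes of mRNA decay, non-classical monocyte-like cells had 8 higher and 0 lower, and Ly6c-high monocyte-like cells had 4 higher and 0 lower, among them Mapkapk2, the kinase that inactivates tristetraprolin, at 0.83. Of the 18 immediate-early and heat-shock genes, proliferative-like cells had 1 higher and 13 lower, beside their lower Socs3 and Zfp36. Reparative-like cells had 5 higher and 2 lower, and dendritic-like cells 7 higher and 2 lower. The part of these genes in the results was not tested.

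A finer cluster carried much of the cytokine and brake signal of the reparative-like class. This cluster of 5794 cells, 5790 of them in that class and 34 of them from baseline, stayed unnamed, since its leading genes were Cxcl1, Gdf15, Cxcl2, Ccl4 and other chemokine genes together with Tnfaip3 and Nfkbiz. Its Il10 mean, as given below, lay above that of the finer interferon-response-like cluster (8.28, 7.98 and 10.6 CPM), with overlapping ranges. It held 4573 of the 11949 Tnf UMIs and 585 of the 1316 Il10 UMIs of the infarct libraries. Its levels are described here without p-values, although the cluster was among those tested against all other cells in the finer clustering. Like the classes, it was defined on the same cells. Its difference from the finer reparative-like cluster, described next, was not tested. In infarct replicates 1, 2 and 3 Tnf was at 98.4, 116 and 85.2 CPM in it, and at 20.6, 30.4 and 20.6 CPM in the finer reparative-like cluster led by Gpnmb and Spp1. Il10 was at 8.63, 13 and 15.3 CPM and at 3.25, 2.58 and 3.16 CPM. Tnfaip3 was at 152, 149 and 246 CPM and at 28.2, 28.0 and 34.3 CPM, and Nfkbia at 617, 819 and 1047 CPM and at 149, 188 and 208 CPM. Il10ra differed less, with 189, 162 and 151 CPM in the unnamed cluster. The immediate-early and heat-shock genes summed to 18028, 18264 and 19121 CPM there and to 8458, 8486 and 7996 CPM in the other, and their part in the result was not tested.

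To ask whether the brakes were higher in the cells in which Tnf was found, macrophages and monocytes of the infarct libraries were thinned to 2000 UMIs each and divided by the presence of a Tnf UMI. This gave 544, 818 and 633 cells with Tnf and 8307, 8835 and 7916 without. Of the other 8 genes, 6 were higher in Tnf-positive cells, where 2.17% of 11041 genes tested were. Nfkbia was at 638, 790 and 983 CPM with Tnf and at 310, 352 and 477 CPM without (1.10, SE 0.0456, edgeR adjusted p = 2.14e-25). Tnfaip3 was at 133, 133 and 174 CPM against 58.2, 54.7 and 97.9 CPM (1.10, SE 0.0810, edgeR adjusted p = 1.25e-15), and Nfkbiz at 464, 413 and 501 CPM against 213, 196 and 263 CPM (1.05, SE 0.0528, edgeR adjusted p = 4.38e-22). In each library all 3 were higher with Tnf, and for these 3 genes the lowest Tnf-positive value lay above the highest Tnf-negative value.

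Socs3 (0.61, edgeR adjusted p = 1.37e-12) and Zfp36 (0.57, edgeR adjusted p = 1.30e-16) rose less, as did Il10ra (0.31, edgeR adjusted p = 0.00119). Il6 was at 8.62, 1.90 and 9.0 CPM against 2.44, 1.41 and 3.53 CPM and did not pass (1.36, edgeR adjusted p = 0.0234), nor did Il10 at 0.958, 11.4 and 7.36 CPM against 4.20, 5.47 and 6.34 CPM (0.42, edgeR adjusted p = 0.645). Of the immediate-early and heat-shock genes, 15 of 18 were also higher in Tnf-positive cells, led by Egr1 at 749 ± 143 CPM against 339 ± 71.7 CPM, and their part in the result was not tested. Of the other lists, 5 of 26 NF-κB genes rose, Tnip3, Traf1 and Nfkbid most, and 2 of 13 mRNA decay genes, Zc3h12a (0.75), which encodes the nuclease regnase-1, and Dusp1 (0.47). By edgeR 0 of 6 genes of TNF release and reception passed, with 2 at an unadjusted p below 0.05 and 0 called by DESeq2, and of 19 genes of IL-6 and IL-10 signalling only Nfil3 did, with -0.68. Reparative-like cells were 78.6% of Tnf-positive and 69.6% of all thinned cells. With the unnamed finer cluster left out, 6 genes passed, Il6 in place of Il10ra, whereas within Ly6c-high monocyte-like cells alone 2 of 7 passed.

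**Figure D4:**
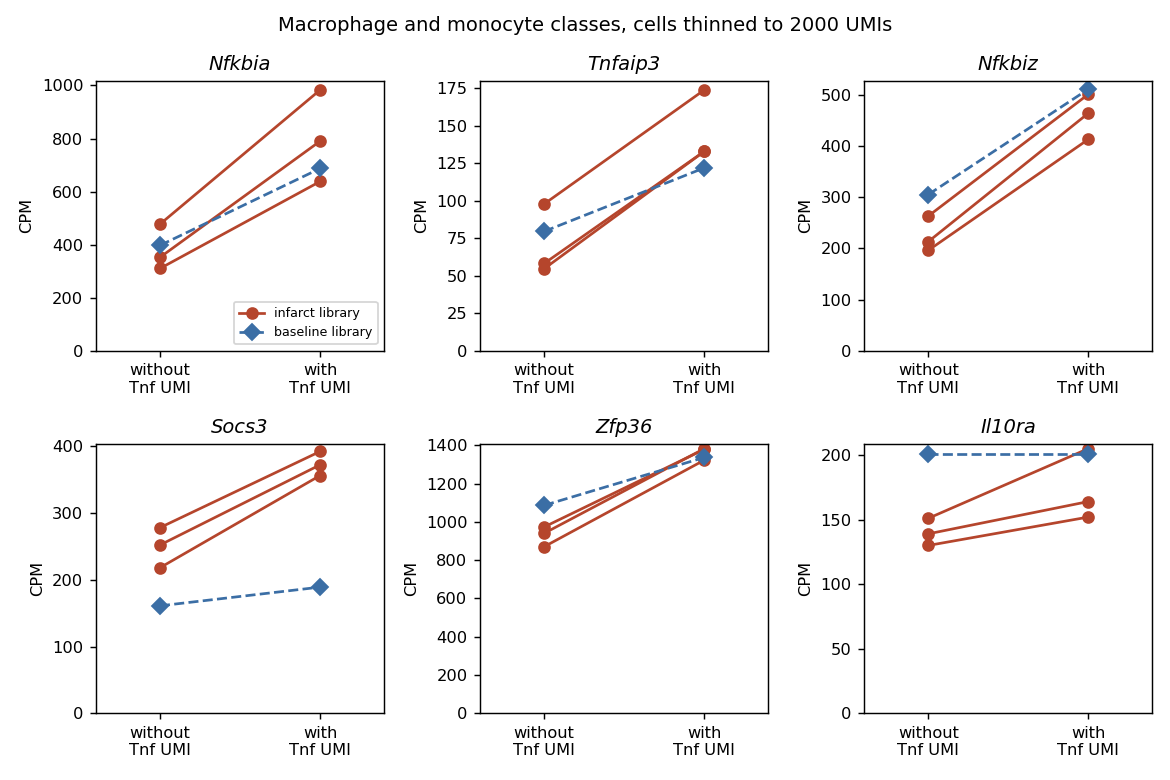
Levels of 6 genes in macrophages and monocytes without and with a Tnf UMI, in CPM on linear axes from 0, after thinning each cell to 2000 UMIs. Each line joins the 2 groups of 1 library, solid for infarct and dashed for baseline; Nfkbia, Tnfaip3, Nfkbiz, Socs3 and Zfp36 rise in all 4 libraries, and Il10ra is level at 201 CPM in the baseline library.

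In the baseline library the same division gave 878 cells with Tnf and 7363 without. Nfkbia was at 687 CPM against 397 CPM, Tnfaip3 at 122 CPM against 79.6 CPM, and Nfkbiz at 511 CPM against 305 CPM. Zfp36, at 1336 CPM against 1086 CPM, and Socs3, at 189 CPM against 161 CPM, had closer values, with intervals of 168 to 211 CPM and 154 to 168 CPM for Socs3 that touch. Il10ra was at 201 CPM on both sides. With 1 library there was no test.

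Il10-positive cells were rarer, with 52, 81 and 76 cells against 8799, 9572 and 8473. Of 8 genes, 5 were higher in them, where 0.473% of 10777 genes tested were. Tnfaip3 was at 151, 206 and 253 CPM with Il10 and at 62.3, 60.1 and 102 CPM without (1.37, SE 0.193, edgeR adjusted p = 7.64e-10), and Nfkbiz was at 402, 501 and 547 CPM against 227, 212 and 278 CPM (0.94, SE 0.127, edgeR adjusted p = 1.36e-10). Nfkbia (0.72), Socs3 (0.58) and Zfp36 (0.51) rose as well, with edgeR adjusted p of 1.01e-08, 0.00172 and 1.62e-07. Il10ra did not pass (0.21, edgeR adjusted p = 0.922), nor did Tnf (0.16, edgeR adjusted p = 0.994), which rested on 23 UMIs. Of the immediate-early and heat-shock genes 9 of 18 were higher too, and their part in the result was not tested. Of 13 genes of mRNA decay, Dusp1 (0.43) and Zfp36l1 (0.40) passed. By edgeR 0 genes of the NF-κB, TNF and IL-6 and IL-10 lists passed, with 6 of 26, 1 of 6 and 3 of 19 at an unadjusted p below 0.05, and DESeq2 also called 0. In simulated data this comparison recovered 13% of genes changed by 1 on the log2 scale and 58% of those changed by 2. Genes that did not pass may therefore still differ. The 5 calls did not hold throughout: by edgeR 0 remained with cells thinned to 1000 UMIs, 0 without the block and 0 with the unnamed finer cluster left out, with 4, 5 and 4 of 8 genes at an unadjusted p below 0.05, and Nfkbiz alone remained without infarct replicate 1.

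To separate changes within a cell type from changes in the mix of types, infarct and baseline were compared inside the 7 classes with at least 50 cells in every library. Of 63 pairs of gene and class, 12 were called by the same 2-fold rule. The counts were 3 for reparative-like (14.3% of all genes met the rule there), 3 for dendritic-like (15.9%), 2 for Ly6c-high monocyte-like (16.5%), 2 for proliferative-like (18.1%), 1 for granulocyte-like (25.9%), 1 for resident-like (4.18%) and 0 for non-classical monocyte-like cells (6.78%). No p-value is given, since the baseline is 1 library.

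Il10 was higher after infarction in the classes that held most of its UMIs. Reparative-like cells had 1 Il10 UMI at baseline, 0.254 CPM, and 4.27, 5.15 and 6.83 CPM after infarction, a ratio of 21.3 with a counting interval of 3.83 to 843. Ly6c-high monocyte-like cells had 2 UMIs at baseline, 0.197 CPM, and 2.78, 2.16 and 5.75 CPM, a ratio of 18.1 (5.01 to 150). In resident-like cells, from which 67 of the 80 baseline UMIs came, Il10 was at 1.82 CPM at baseline and at 16.9, 0 and 2.98 CPM, from 6 UMIs, on both sides of it. Dendritic-like cells went from 0.684 CPM (4 UMIs) to 1.39, 1.82 and 1.80 CPM, and this turned to -1.39 on the log2 scale when doublets were removed.

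In the reparative-like class Socs3 and Nfkbiz were also called, against 559 cells at baseline. Socs3 was at 74.4 CPM at baseline (66.2 to 83.5) and at 259, 216 and 276 CPM after infarction, a log2 difference of 1.75. Nfkbiz was at 101 CPM (91.2 to 111) and at 246, 210 and 282 CPM, a difference of 1.29. Nfkbia (253 CPM against 312, 381 and 518 CPM), Il10ra (78.0 CPM against 147, 134 and 126 CPM) and Zfp36 (637 CPM against 989, 857 and 939 CPM) were higher in all 3 infarct libraries, with means less than 2-fold above baseline. The baseline value of Il10ra lies below that of the baseline endothelial-like cells given above. Tnf lay on both sides of baseline in this class, at 49.3 CPM and at 47.4, 56.1 and 46.2 CPM. The immediate-early and heat-shock genes summed to 10437 CPM in this class at baseline and to 11967, 11586 and 12153 CPM after infarction, the median UMI count was 4417 at baseline and 8349 to 8530 after infarction, and the 7 endothelial markers went from 162 CPM to 30.3, 23.2 and 29.1 CPM and the 5 cardiomyocyte markers from 115 CPM to 37.3, 40.9 and 60.9 CPM. The part of these values in the result was not tested. The class also held other finer clusters in the 2 groups: of its baseline cells 181 lay in the finer reparative-like cluster, 233 in a cluster of low UMI counts and 33 in the unnamed chemokine cluster, which held 1573, 1915 and 2269 of the infarct cells. Without the low-UMI cluster Socs3 and Nfkbiz differed by 1.69 and 1.28. In the finer reparative-like cells alone Socs3 was still 2-fold or more higher (64.7 CPM against 150, 132 and 133 CPM; 1.10), while the call of Nfkbiz was lost (62.8 CPM against 97.2, 94.2 and 81.9 CPM; 0.54). There Nfkbia lay on both sides of baseline, 182 CPM against 149, 187 and 207 CPM, and Tnfaip3 was lower, 87.6 CPM against 28.1, 27.9 and 34.0 CPM (-1.55). Il10 rested on 1 baseline UMI there too, with 3.25, 2.56 and 3.18 CPM after infarction. TMM raised the median of genes in this class from -0.12 to 0.07 and turned Tnfaip3 from -0.16 to 0.02, and it changed no other direction there.

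In the remaining classes the calls went in both directions. Resident-like cells had more Socs3 after infarction, 237, 173 and 417 CPM against 136 CPM (1.02), a call that was lost without replicate 3 (0.59), and each infarct value rests on 52 to 79 cells. Their Tnf was lower in every infarct library, 50.8, 90.1 and 59.6 CPM against 95 CPM, by less than 2-fold. Dendritic-like cells met the rule for Tnf (23.8, 41.3 and 62.6 CPM against 19.8 CPM), but the call was lost without replicate 3 (mean 32.5 CPM). The baseline value and replicate 1 lie below the 28.1 CPM of baseline endothelial-like cells, from which no background could be set. They had less Il6 (1.39, 2.85 and 1.80 CPM against 8.55 CPM; -2.08). Granulocyte-like cells had more Tnf (165, 101 and 299 CPM against 36.2 CPM from 7 UMIs; 2.38).

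Il6 was called in opposite directions in another pair of classes. In Ly6c-high monocyte-like cells it was at 4.23 CPM at baseline (3.06 to 5.69) and at 7.60, 8.19 and 20.9 CPM (1.53), and the call was lost without replicate 3 (mean 7.90 CPM; 0.90). The finer Saa3-Arg1 macrophage-like cluster, 2434 of whose 2443 cells lie in this class, held 19 cells at baseline and 1357, 126 and 941 in the infarct libraries, so that the class was not the same mix in both groups. With that cluster left out Il6 was at 4.04 CPM and at 5.23, 5.43 and 5.71 CPM (0.43), which is not a call, and Il10 in the class was at 2.08, 1.61 and 1.78 CPM after infarction. In proliferative-like cells Il6 was at 4.90 CPM from 11 UMIs and at 0.318, 0.175 and 1.24 CPM (-3.08). All of Tnf, Il10ra, Tnfaip3, Nfkbia, Nfkbiz, Socs3 and Zfp36 were below baseline in the 3 infarct libraries of the proliferative-like class, Tnfaip3 past 2-fold (126 CPM against 50.2, 44.2 and 87.3 CPM; -1.06), a call that was lost without replicate 1 (-0.94) or replicate 2 (-0.88). By TMM they also lay below it, Tnfaip3 at -0.86, and the median of genes there went from -0.17 to 0.03, while it went from -0.14 to 0.02 in dendritic-like and from 0.19 to -0.00 in granulocyte-like cells. The immediate-early and heat-shock genes were lower in proliferative-like cells as well, with 16 of 18 below baseline in every infarct library and 6 of them past 2-fold, and their part in the result was not tested. The class is named by cell-cycle genes, Mki67 and Top2a among them, and the types that its cells came from were not determined. Resident-like cells were 59.1% of the baseline library, and reparative-like cells were 54.4%, 73.1% and 69.8% of infarct replicates 1, 2 and 3. A change in the mix of types in this class was not tested.

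**Figure D5:**
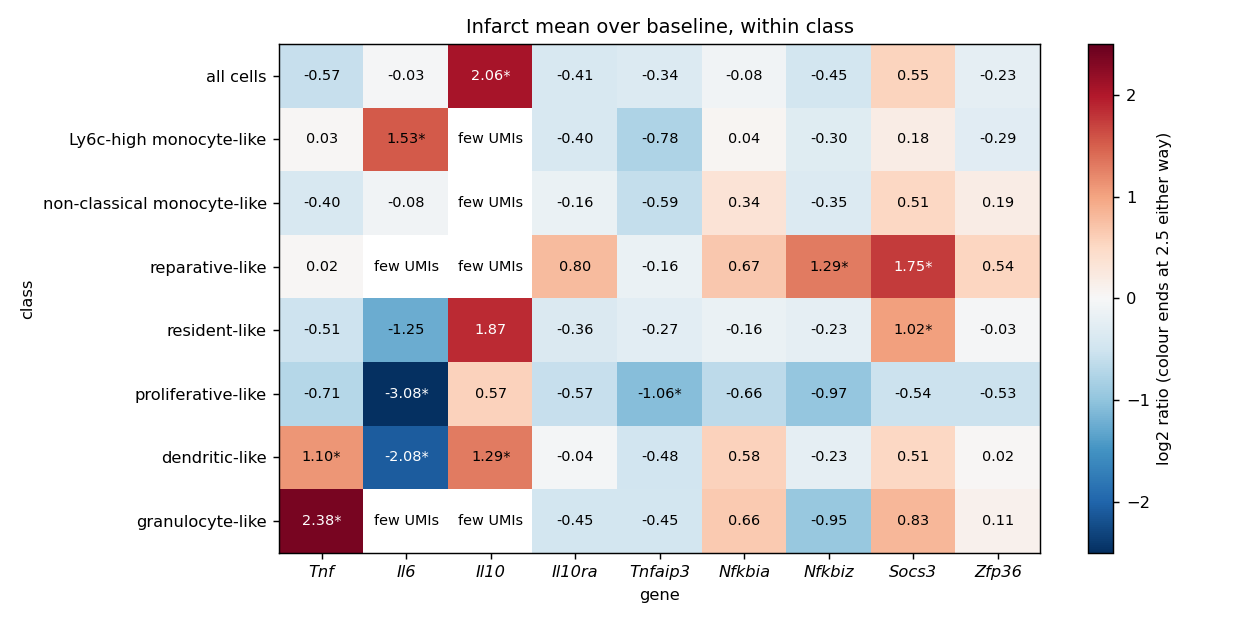
Log2 ratio of the infarct mean (3 libraries) to the 1 baseline library, over all cells and within each class. Asterisks mark pairs in which all 3 infarct libraries lie on the same side of baseline and the mean differs 2-fold or more, and "few UMIs" marks pairs with 3 or fewer UMIs at baseline; the reparative-like row is raised for Nfkbiz at 1.29 and Socs3 at 1.75, and the proliferative-like row is below 0 for every gene but Il10.

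Genes whose levels over 35 sums of library and class ran most like each of the 9 were listed as a description, by Pearson's r of log2(CPM + 10). The sums share libraries, depth and classes and are not independent. For Tnf these were Hacd2 (0.83), Clec5a (0.82) and the chemokine gene Ccl3 (0.82). For Il6 they were Ms4a8a (0.72), Prtn3 (0.68) and the scavenger receptor gene Marco (0.67), and for Il10 Ly86 (0.72), Glt8d1 (0.71) and Cacna1d (0.70). Il10ra ran with Ptprj (0.82), Sat1 (0.82) and Clec4a3 (0.81). Tnfaip3 had Nfkbia among its 3 nearest genes (0.79), beside Il18rap (0.80) and the inflammasome gene Nlrp3 (0.77). Nfkbia ran most closely with Il1r2, a decoy receptor for IL-1 (0.85), Nfkbiz with Armc7, Fos and Acsl1 (0.76 each), Socs3 with Trib1 (0.78), Pigx (0.77) and Zfp36 (0.76), and Zfp36 with Ogfrl1 (0.87), Rasgrp4 (0.86) and Ccpg1 (0.85).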

How the data were processed

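Libraries were prepared with the Chromium 3′ v3.1 kit, and the authors processed reads with Cell Ranger against mm10 (version 3.0.1 per the labels, 3.1.0 per the file headers). The deposited matrices hold raw UMI counts per gene and cell, with no normalization by the authors. Groups were taken from the labels, and the pooling of 3 baseline hearts from the study's methods.

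Cells with 500 to 40000 UMIs and more than 200 genes were kept. They were clustered in scanpy 1.11.5 on 2000 variable genes without the 9 genes and their lists, with 20 principal components, 25 neighbours and Leiden clustering (leidenalg 0.10.2) aimed at 12 clusters, and named from fixed markers. Doublets were kept: automatic calls reached at most 2.22% of a library, and removing 8.10% to 8.63% of cells was an alternative. UMIs were summed per library and class. Classes with at least 20 cells in every infarct library were tested with edgeR 4.0.16 (R 4.3.3), a quasi-likelihood test with TMM scaling and library as a block, with Benjamini-Hochberg adjustment over all genes and a threshold of 0.01. The block was used because each heart gives a sum inside and a sum outside the class. Cells were also thinned to 2000 UMIs each (scipy 1.17.1, Python 3.11.15) and divided by a Tnf or Il10 UMI. Infarct and baseline were compared by CPM without a test, since baseline was 1 library, in classes of at least 50 cells per library. Intervals are 95% exact Poisson or binomial and, like limits from 0 counts, cover counting error only. Alternatives included DESeq2 1.42.0, other clusterings, scalings, filters and leaving out each heart. The tests were first tested on simulated data with a fixed dispersion, in which the changed genes had at least 10 CPM. At a log2 change of 1 they recovered 94% of changed genes for reparative-like and 39% for granulocyte-like cells. They recovered 74% for Tnf-positive and 13% for Il10-positive cells. At a log2 change of 2 the shares were 100%, 87%, 98% and 58% in the same order.

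The genes named are the 9 members, and for each further list the genes of largest change among those called. The members and lists were chosen with earlier results of these data known.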

Additional observations from a re-analysis of the deposited data

Results flagged for a closer look

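Each gene below was higher than baseline in all 3 infarct libraries of one class and lower in all 3 of the proliferative-like class, given as log2 differences of the infarct mean from the 1 baseline library. The differences between classes were not tested, and all of them rest on that library. The proliferative-like class is named by cell-cycle genes, and its mix of cell types may differ between the groups. Tnf was at 2.38 in granulocyte-like cells, from 7 baseline UMIs, and at -0.71 in proliferative-like cells. Il6 was at 1.53 in Ly6c-high monocyte-like cells, and at 0.90 without replicate 3, and at -3.08 in proliferative-like cells, from 11 baseline UMIs. In reparative-like against proliferative-like cells, Il10ra was at 0.80 and -0.57, Nfkbia at 0.67 and -0.66, Nfkbiz at 1.29 and -0.97, Socs3 at 1.75 and -0.54, and Zfp36 at 0.54 and -0.53. In the finer reparative-like cells alone Nfkbia was at -0.01 and Nfkbiz at 0.54. For Il10ra, the reparative-like baseline value and the proliferative-like infarct values lay below the level of baseline endothelial-like cells. The immediate-early and heat-shock genes summed to 10437 CPM at baseline and 11967, 11586 and 12153 CPM after infarction in reparative-like cells, and to 14657 CPM and 9591, 8592 and 9634 CPM in proliferative-like cells. In granulocyte-like cells 6 of these 18 genes lay above baseline in every infarct library and 8 below. In Ly6c-high monocyte-like cells 2 lay above and 10 below. The part of these genes in the results was not tested.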

How the results depend on the processing

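Of the 34 calls of gene and class, 14 held under all 13 other settings tried, 5 of them in granulocyte-like cells. The number of calls was 74 of 144 pairs with clusters aimed at 20, 60 of 126 with a per-cell marker gate, where other classes were compared, 19 with no replicate block, and 24 to 39 with 1 infarct library left out. With the per-cell gate the direction turned in B cell-like cells for Zfp36 (0.40) and Socs3 (0.39), in granulocyte-like cells for Il10ra (0.17), in non-classical monocyte-like cells for Tnfaip3 (0.22) and Tnf (0.22), in proliferative-like cells for Il6 (0.55), and in reparative-like cells for Tnfaip3 (-0.29), Il10ra (-0.13) and Nfkbiz (-0.54). With clusters aimed at 20 it turned in dendritic-like cells for Il10 (0.27) and Socs3 (-0.92) and in reparative-like cells for Tnfaip3 (-1.48), Il10ra (-0.27) and Nfkbiz (-1.51). These classes then held different cells. With clusters aimed at 20 the reparative-like name kept 8050 of 21156 cells. Over all 4 libraries, the gated B cell-like cells held 317 cells of the clustered class of that name and 1696 of the reparative-like class. For gated granulocyte-like cells these counts were 329 and 419, for non-classical monocyte-like cells 1504 and 498, and for proliferative-like cells 924 and 691. The cause was not tested otherwise.

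Of 8 genes, 6 were called in Tnf-positive cells, 2 without the replicate block, 2 of 7 within Ly6c-high monocyte-like cells alone, where Socs3 turned to -0.10, and 5 to 6 with 1 library left out. Nfkbiz alone was called under all 13 settings. In Il10-positive cells 5 were called, 0 without the replicate block, 0 when thinned to 1000 UMIs, where Socs3 was at -0.00, 0 with the unnamed finer cluster left out, which was chosen after seeing the data, and 1 to 4 with 1 library left out, the 1 being without infarct replicate 1. Too few Ly6c-high monocyte-like cells were Il10-positive for a test of those alone.

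Against baseline, 1 of 9 genes was called over all cells and 0 with a mean of at least 10 CPM required, since Il10 lies below that level. Within classes 12 pairs were called, 6 with that requirement and 11 to 13 with 1 library left out. These were not the same pairs: without replicate 3 Il6 in Ly6c-high monocyte-like, Tnf in dendritic-like and Socs3 in resident-like cells lost the call while 4 other pairs gained it, and Tnfaip3 in proliferative-like cells lost it without replicate 1 or 2. In choices made after seeing the data, Nfkbiz in reparative-like cells went from 1.29 to 0.54 in the finer cluster of that name alone and Il6 in Ly6c-high monocyte-like cells from 1.53 to 0.43 with the Saa3-Arg1 cluster left out. Il10 in dendritic-like cells turned to -1.39 with doublets removed. Depth limits Il10 and Il6 most: the infarct libraries held 1316 Il10 and 704 Il6 UMIs, against 11949 of Tnf, and the Il10-positive groups 52 to 81 cells.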

Other observations

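The genes in this paragraph were chosen after their values were seen, as those with the smallest p in each direction. In Tnf-positive macrophages and monocytes Ccl4 was at 2566 ± 331 CPM (SD, n = 3) against 1072 ± 173 CPM in Tnf-negative cells, a log2 fold change of 1.27, and Cxcl2 (1.28), Ccl3 (1.10) and the stress cytokine Gdf15 (1.37) were also higher, in 3 of 3 libraries each. Saa3 (-1.36), Plac8 (-1.62), Fn1 (-0.91), Arg1 (-1.33) and Slpi (-2.33), genes that led the Ly6c-high class, were lower. In Il10-positive cells Cxcl2 (1.42), Cxcl1 (2.26) and the interferon-induced Cxcl10 (1.59) and Ifit3 (1.48) were higher. The class II antigen presentation gene H2-Aa was lower, at 2622 ± 707 CPM against 3618 ± 361 CPM, a log2 fold change of -0.59.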
